A study of Mus musculus with 2 samples.

Results

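Translation initiation and elongation factors are the proteins that load the ribosome onto an mRNA, find its start codon and then move the ribosome along it. Their transcripts were measured here in B cells of the diabetes-prone NOD mouse strain, which either carried a human AIRE transgene or did not. AIRE is the regulator through which thymic epithelium expresses genes of other tissues. The members were all probe sets, the groups of probes by which an Affymetrix array reads a transcript, whose single platform gene symbol starts with Eif or Eef and a digit. Kinases whose symbols start with Eif2ak and the Y-linked Eif2s3y were left out. This gave 53 genes with 140 probe sets, out of 18193 genes with 34945 probe sets that name 1 gene. Of these, 121 probe sets of 51 genes lay above the intensity filter described below. Eif4a3, a helicase of the exon junction complex, and Eef2kmt, a methyltransferase of eEF2, had no probe set above it. Eif1, Eif2s1, Eif3g and Eif4g1 are core factor genes that were not analysed here.

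The transgenic group was 1 array of RNA from 2 AIRE transgenic NOD mice. The non-transgenic group was 1 array of RNA from 2 NOD mice without the transgene. All mice were 8 weeks old, and the cells of both groups had been selected as lacking Thy1 and CD11c and carrying B220. The transgene was driven by an MHC class II promoter, which is active in antigen-presenting cells, so it is not restricted to B cells. With 1 array per group no difference has a replicate check, no p-value was computed, and every ratio describes these 2 arrays.

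Initiation begins when eIF2 brings the initiator tRNA to the small ribosomal subunit together with eIF1, eIF1A, eIF3 and eIF5. The cap-binding complex eIF4F, built from eIF4E, a scaffold and the helicase eIF4A, recruits this assembly to the mRNA. The 4E-binding proteins compete with the scaffold for eIF4E and release it when the kinase mTOR phosphorylates them. During elongation eEF1A delivers aminoacyl-tRNAs and eEF2 translocates the ribosome. B cells raise translation strongly when activated, and many transcripts of elongation factors and ribosomal proteins carry a pyrimidine tract at their start through which mTOR controls their translation.

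Intensities are given as deposited, on a linear scale. Ratios are log2 of transgenic over non-transgenic after values under the pooled 25th percentile, an intensity of 25, were set to it as a floor. A probe set was kept if the mean of its 2 log2 values reached the pooled median, an intensity of 98.8, and for statements about genes the probe set of highest mean level stood for its gene. The trimmed mean was 500.0 on both arrays, the median intensity was 93.1 on the transgenic array, against 104.3 on the other, and 3′ to 5′ ratios of the actin, Gapdh and transferrin receptor controls ranged from 0.775 to 4.20 in transgenic and from 0.670 to 4.59 in non-transgenic cells. B cell markers were present on both arrays and lower in transgenic cells in 5 of 5 genes, with a summed intensity of 86282 against 159990. Progenitor markers summed to 2452 in transgenic against 1167 in non-transgenic cells, natural killer cell markers to 4446 against 2976, and T cell markers to 1039 against 1212. All 4 T cell markers above the filter were below 0, while Cd4, under it, had 146 in transgenic against 40.5 in non-transgenic cells. A single gene gave the largest part of the progenitor, natural killer and plasma cell sums. Myb gave 1809 of the progenitor sum in transgenic and 823 in non-transgenic cells, and 4 of the 6 markers were under the filter. Of these 4, Vpreb1 had 168 in transgenic against 31.7 in non-transgenic cells, Rag1 127 against 1.9 and Dntt 138 against 65.2. Rag2 was under the floor on both arrays, and Igll1 was at -0.19. Gzma gave 2611 of the natural killer sum in transgenic and 1446 in non-transgenic cells. Klre1 was at 1.12 and Ncr1 at 0.54, while Prf1 was at -0.22 and Nkg7 at -0.14. Myeloid, dendritic and plasma cell markers in transgenic cells summed to 0.925, 1.21 and 0.789 times their level in non-transgenic cells, and no red cell marker lay above the filter. Jchain gave 17224 of the plasma cell sum in transgenic and 24903 in non-transgenic cells, and 2 of the 6 plasma cell markers were above 0 and 4 below. Ccr9 gave 1370 of the dendritic sum in transgenic and 737 in non-transgenic cells, but its probe sets ranged from -0.47 to 0.89. Fewer cells of a type and less RNA per cell cannot be told apart in such samples, and the part of these shifts in the factor ratios was not tested.

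Most translation factors stood at nearly the same level on both arrays. The median log2 ratio of the 121 factor probe sets was 0.03, and 65 lay above 0 and 56 below. It was -0.01 over all 18623 probe sets above the filter that name 1 gene. Shares and medians of all probe sets below likewise cover only those that name 1 gene. In transgenic cells 2 factor probe sets passed 2-fold upward, beside 1.82% of all probe sets, and 4 passed it downward, beside 3.99% of all. These counts are 1.65% and 3.31% of the factors, close to the background. A smaller difference of 1.5-fold in either direction was reached by 14 of the 121 (11.6%), beside 22.1% of all probe sets. Eif4ebp2, an inhibitor of cap-dependent initiation, held 3 of the 4 lower probe sets.

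**Figure D1:**
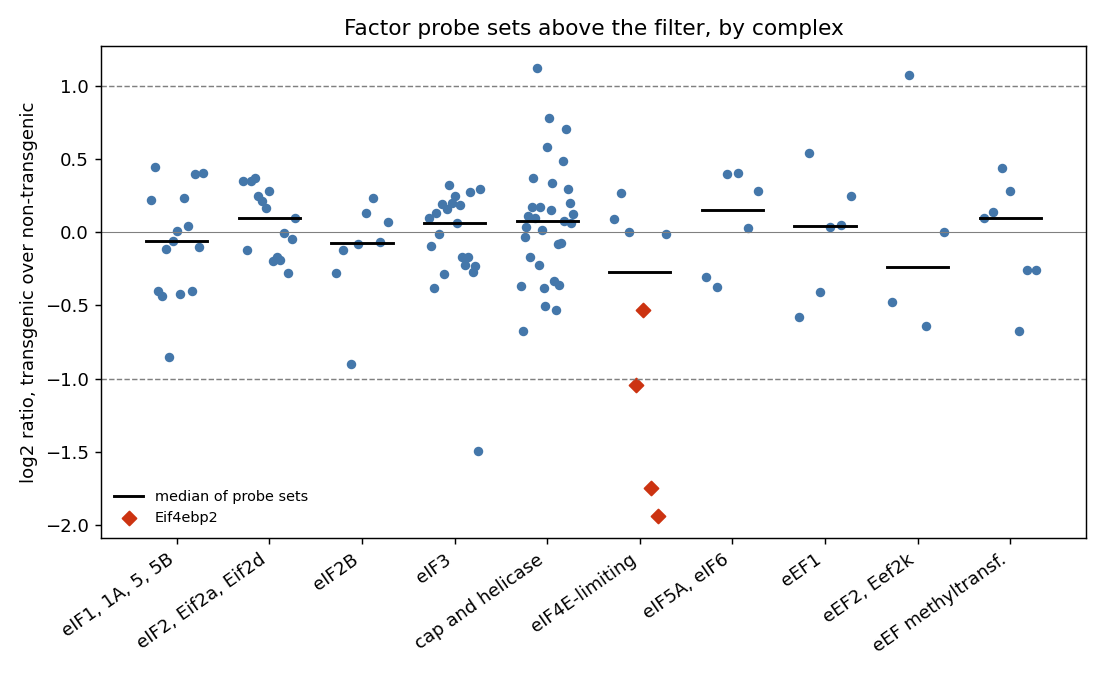
Each point is 1 factor probe set above the filter, grouped on the horizontal axis by complex, and the vertical axis is the log2 ratio of transgenic over non-transgenic intensity. Black bars are medians and dashed lines mark 2-fold. The medians of the 10 groups lie between -0.27 and 0.16, and the 4 Eif4ebp2 points (red diamonds) lie from -0.53 to -1.94.

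With 1 array per group, the only spread available is the scatter between probe sets that read the same gene in the same RNA. Among the 33 factor genes with at least 2 probe sets above the filter, the ratios of a gene spanned a median of 0.47 on the log2 scale, against 0.54 over 4850 such genes in all. The pooled SD within a factor gene was 0.36. All probe sets of a gene had ratios of 1 sign in 18 of these 33 genes (54.5%), beside 46.9% of all such genes. A single factor ratio smaller than about this SD is therefore within the scatter between probe sets. This scatter does not include differences between mice, or error that all probe sets of an array share. It can include real differences between the transcripts that probe sets of a gene read.

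Among the genes that restrain eIF4E, 1 differed by 2-fold in several probe sets. Eif4ebp2, the main 4E-binding protein of the brain, was read by 5 probe sets, and every one was lower in transgenic cells. The brightest had an intensity of 2905 in transgenic and 4194 in non-transgenic cells (a log2 ratio of -0.53, 1.44-fold lower). The second brightest had 528 in transgenic and 1773 in non-transgenic cells (-1.75, 3.36-fold lower). The probe set designed on the reference mRNA had 584 in transgenic and 1206 in non-transgenic cells (-1.05). A further one had 144 in transgenic and 553 in non-transgenic cells (-1.94, 3.83-fold lower). The direction was thus the same in these 4, while the fold ran from 1.44 to 3.83. The last lay under the filter, at 8.60 in transgenic and 100.6 in non-transgenic cells, which is at least 4.02-fold lower because the transgenic value was under the floor.

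Eif4ebp2 was 1 of 6 genes with at least 3 probe sets 2-fold lower, among the 888 genes with at least 4 probe sets above the filter (0.676%), a criterion chosen after its values were seen. The brightest and the dimmest of these 4 were designed on the same EST, and where each of the 5 lies in the transcript was not analysed here. Under median scaling, quantile normalization and loess the 4 probe sets above the filter remained lower, with ratios from -0.37 to -1.85, although median scaling put the one on the reference mRNA at -0.88, short of 2-fold. The related Eif4ebp1, which shares the eIF4E-binding function and is a known target of the stress factor ATF4, had 768 in each by its brightest probe set (0.00). Its other 2 probe sets were at 0.09 and 0.27. Eif4enif1, which carries eIF4E into the nucleus and represses bound mRNAs, had 1862 in transgenic and 1875 in non-transgenic cells (-0.01). No probe set of these 2 genes was 2-fold apart, against 3 of the 4 of Eif4ebp2.

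The cap-binding proteins themselves differed in direction from one another. Eif4e, the cap-binding subunit of eIF4F, had 2513 in transgenic and 2343 in non-transgenic cells (0.10). Its dimmer probe sets were at 643 against 497 (0.37) and at 153 against 70.3 (1.12), and this last one, near the filter, is one of the 2 that were 2-fold higher. A probe set of Eif4e under the filter had 44.9 in transgenic and 72.4 in non-transgenic cells (-0.69), so the dim probe sets pointed both ways. Eif4e2, a cap-binding homologue that represses translation, had 1398 in transgenic and 1634 in non-transgenic cells (-0.22), and its 5 probe sets ranged from -0.50 to 0.18, with 3 of them below 0. Eif4e3, an atypical cap-binding homologue, was higher by both probe sets, at 1002 in transgenic against 668 in non-transgenic cells (0.59) and at 815 against 475 (0.78). These are 1.5-fold and larger and agree between probe sets, but neither reached 2-fold.

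**Figure D2:**
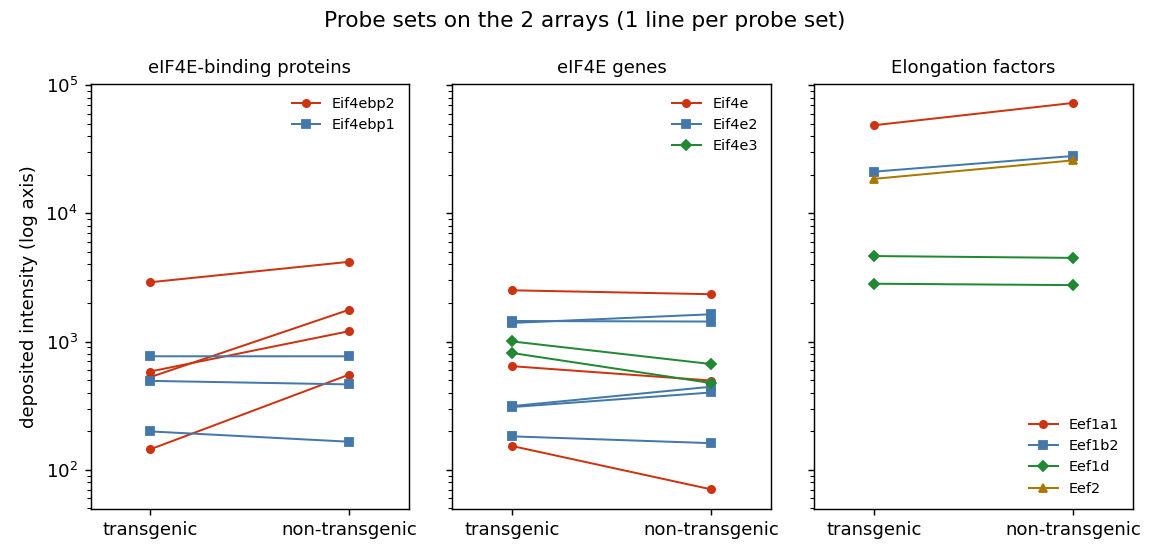
Deposited intensities (log axis) of single probe sets on the transgenic and non-transgenic array, 1 line per probe set above the filter, for the 4E-binding proteins, the eIF4E genes and the core elongation factors. All 4 Eif4ebp2 lines are lower at the transgenic end, Eif4ebp1 lines are nearly level, and Eef1a1, Eef1b2 and Eef2 have log2 ratios of -0.58, -0.41 and -0.48 as deposited, with Eef1a1 at 0.00 after quantile normalization.

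The scaffolds and helicases of eIF4F lay close to equality. Eif4g2, a scaffold that lacks the eIF4E-binding site, had 24473 in transgenic and 30871 in non-transgenic cells (-0.34) by its brightest probe set. Its other probe sets above the filter ranged from -0.53 to 0.34, so its direction was not settled, and the brightest one was at 0.01 after quantile normalization. Eif4g3, a scaffold that binds eIF4E, had 2839 in transgenic and 2997 in non-transgenic cells (-0.08). The helicase Eif4a1 had 7223 in transgenic and 7383 in non-transgenic cells (-0.03), with other probe sets at -0.37 and -0.68. Its paralogue Eif4a2 had 21140 in transgenic and 20625 in non-transgenic cells (0.04). The helicase cofactors also differed little, with Eif4b at 6148 in transgenic against 5443 in non-transgenic cells (0.18). Eif4h, the other cofactor, was above 0 in all 6 probe sets, from 0.07 to 0.70, with 7378 in transgenic and 6988 in non-transgenic cells by the brightest (0.08). The median of the 9 cap-binding and helicase genes was 0.04. None was 2-fold apart, beside 1.75% of all genes that were 2-fold higher and 2.87% that were 2-fold lower.

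eIF3, the largest initiation factor, bridges the small subunit and eIF4F. Its 11 genes had a median ratio of 0.13, which became -0.06 when a gene's probe sets were averaged and -0.17 when their middle ratio was taken. By the brightest probe sets 6 genes lay above 0, 5 below and none was 2-fold apart, beside 1.75% of all genes that were 2-fold higher and 2.87% that were 2-fold lower. Eif3c, a core scaffold subunit, had 7685 in transgenic and 6132 in non-transgenic cells (0.33), with other probe sets from -0.29 to 0.19. Eif3a, the largest subunit, had 8385 in transgenic and 7643 in non-transgenic cells (0.13). Both values lie within the scatter between probe sets of a gene. Eif3m, an accessory subunit, showed how far probe sets can part. Its bright probe set had 2793 in transgenic and 2269 in non-transgenic cells (0.30), while a dim one near the filter had 63.6 in transgenic and 180 in non-transgenic cells (-1.50). By the brightest probe set of each gene, the lowest ratios of the complex were those of Eif3k, at 5624 in transgenic against 6782 in non-transgenic cells (-0.27), and Eif3l, at 2961 against 3480 (-0.23), 2 subunits that contact each other. Eif3h (-0.22), Eif3f (-0.17, but 0.04 under loess), Eif3b (-0.01), Eif3e (0.19), Eif3d (0.20) and Eif3i (0.28, with its other probe set at -0.17) filled the range between.

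The start-site factors and the tRNA carrier eIF2 showed no common direction. Eif5, which triggers GTP hydrolysis by eIF2, had 7347 in transgenic and 9842 in non-transgenic cells (-0.42), and its other 4 probe sets ranged from -0.40 to 0.23. Eif1ad, a relative of eIF1A, was lower by both probe sets, at 675 in transgenic against 893 in non-transgenic cells (-0.40) and at 486 against 658 (-0.44). Eif5b, the GTPase that joins the ribosomal subunits, had 1963 in transgenic and 1486 in non-transgenic cells (0.40), with other probe sets at -0.10 and 0.41. The eIF1A genes parted in sign, with Eif1a at 1131 in transgenic against 972 in non-transgenic cells (0.22) and its X-linked copy Eif1ax at 2208 against 2384 (-0.11). The other Eif1ax probe set above the filter had 340 in transgenic and 612 in non-transgenic cells (-0.85), so the size of its difference was not settled. Eif1b, a relative of eIF1, was at -0.06, and the median of these 6 genes was -0.08, which became 0.08 under median scaling.

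Of the eIF2 subunits measured, Eif2s2, the beta subunit, had 6482 in transgenic and 5768 in non-transgenic cells (0.17), and its 6 probe sets ranged from -0.19 to 0.28. Eif2s3x, the X-linked gamma subunit that binds GTP, had 3565 in transgenic and 3675 in non-transgenic cells (-0.04). Eif2d, which can deliver tRNA independently of eIF2, was above 0 in all 4 probe sets above the filter, from 0.22 to 0.37, with 1627 in transgenic and 1276 in non-transgenic cells by the brightest (0.35). Eif2a, an alternative tRNA carrier, had 604 in transgenic and 656 in non-transgenic cells (-0.12) and 0.35 by its other probe set. eIF2B recharges eIF2 with GTP and is the target of the integrated stress response. Its catalytic subunit Eif2b5 had 1050 in transgenic and 1099 in non-transgenic cells (-0.07). The regulatory subunit Eif2b1 had 745 in transgenic and 903 in non-transgenic cells (-0.28), and Eif2b4 had 1738 against 1473 (0.24). Eif2b2 was at -0.12 and -0.08 by its brighter probe sets, while its dimmest had 418 in transgenic and 780 in non-transgenic cells (-0.90). Eif2b3 was at 0.13, and the median of the 5 genes by their brightest probe sets was -0.07, which became 0.10 under median scaling.

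The core elongation factors were lower in transgenic cells as deposited, as were most probe sets of that brightness, but Eef1a1 was level after quantile normalization. Eef1a1, the main carrier of aminoacyl-tRNA, had 48791 in transgenic and 72830 in non-transgenic cells (-0.58). Eef1b2, a nucleotide exchange subunit for eEF1A, had 21197 in transgenic and 28078 in non-transgenic cells (-0.41). Eef2, the translocase, had 18617 in transgenic and 25958 in non-transgenic cells (-0.48). Eif5a, which relieves ribosome stalling and carries the amino acid hypusine, was lower by both probe sets, at 26972 in transgenic against 34945 in non-transgenic cells (-0.37) and at -0.30. These are small differences in very bright probe sets, and none reached 1.5-fold. After quantile normalization Eef1a1 was at 0.00, Eef1b2 at -0.11, Eef2 at -0.26 and Eif5a at -0.04, so the differences depended on the scaling.

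Bright probe sets as a whole leaned the same way. Of all 350 probe sets with a mean intensity of at least 10000, 242 had a ratio below 0, and their median was -0.22. The 10 factor probe sets of that brightness had a median of -0.25, with 6 below 0. The 56 factor probe sets between 1000 and 10000 had a median of 0.04 beside 0.07 for all, and the 55 under 1000 had 0.00 beside -0.07. In each range the factors thus followed the rest of the array within 0.07 on the log2 scale. Probe sets of ribosomal protein genes at least as bright as 10000 had a median of -0.44, with 61 of 62 below 0.

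**Figure D3:**
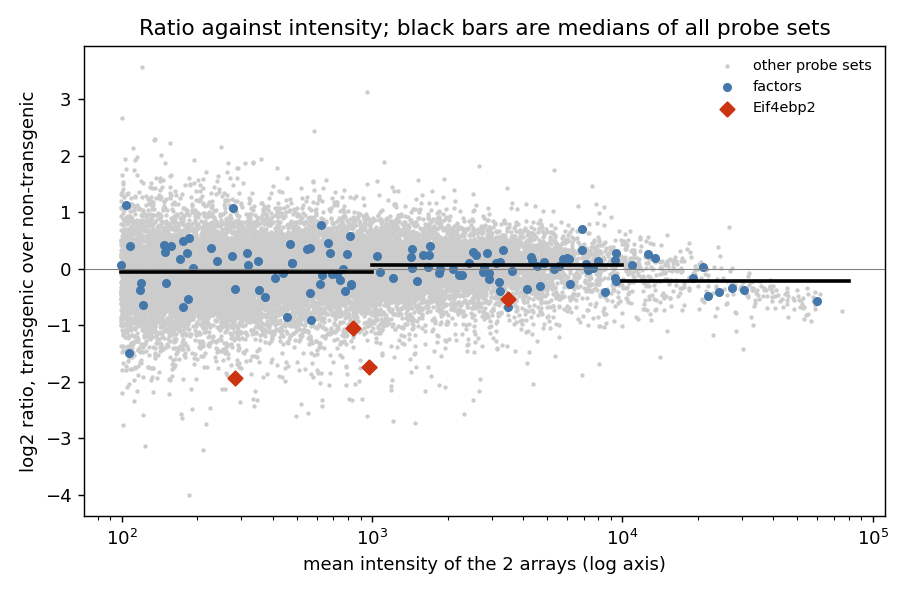
The log2 ratio of transgenic over non-transgenic (vertical axis) against the mean intensity of the 2 arrays (horizontal log axis) for all probe sets above the filter. Grey points are other probe sets, blue points factors, red diamonds Eif4ebp2, and black bars the medians of all probe sets in each intensity range, which are -0.07, 0.07 and -0.22.

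The dimmer elongation genes did not follow the bright ones. Eef1d, another exchange subunit, had 4652 in transgenic and 4500 in non-transgenic cells (0.05), and its other probe set above the filter was at 0.04. Eef1e1, a component of the multi-synthetase complex, had 1840 in transgenic and 1550 in non-transgenic cells (0.25). Eef1a2, the copy of eEF1A known from muscle and neurons, was dim, with 224 in transgenic and 153 in non-transgenic cells (0.54). The vertebrate copy of eIF5A, Eif5a2, was at 180 in transgenic against 137 in non-transgenic cells (0.40) and at 0.41 by its other probe set. Eif6, which keeps the large subunit from joining too early, had 1687 in transgenic and 1654 in non-transgenic cells (0.03). In both paralogue pairs the bright gene was below 0 and the dim one above 0 as deposited, although quantile normalization put Eef1a1 at 0.00.

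Eef2k, the kinase that inhibits eEF2, was the only one of 51 factor genes 2-fold apart by its representing probe set. That is 1.96% of factor genes 2-fold higher and 0% lower, beside 1.75% and 2.87% of all genes, so 1 call is near the background. The probe sets of Eef2k disagreed. The brightest, which is marked as shared between transcripts, had 405 in transgenic and 192 in non-transgenic cells (1.08). Another had 192 in each (0.00), and the dimmest had 96.9 in transgenic and 151 in non-transgenic cells (-0.64). No direction can therefore be given for this gene. Among the methyltransferases, Eef1aknmt, which modifies eEF1A, was lower by all 3 probe sets, from -0.67 to -0.26, with 139 in transgenic and 221 in non-transgenic cells by the brightest. Eef1akmt1 had 493 in transgenic and 460 in non-transgenic cells (0.10), and Eef1akmt2 had 749 against 615 (0.28).

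Because the elongation factors are classical examples of transcripts that begin with a pyrimidine tract, the bases around the annotated transcript starts were read from RefSeq promoters (GRCm38.p6) for the 42 factor genes found there. Windows cover 5 bases before and 25 after the start, 5′ to 3′ on the strand of the gene, and capitals mark a run of at least 8 C or T. Shown are the bright elongation factors, the factor genes with the longest runs, and Eif4ebp2.
Eef1a1 (chr9:78481700-78481729, minus strand): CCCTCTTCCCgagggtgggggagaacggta
Eef2 (chr10:81176626-81176655, plus strand): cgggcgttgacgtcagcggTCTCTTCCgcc
Eef1b2 (chr1:63176826-63176855, plus strand): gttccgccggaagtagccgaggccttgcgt
Eif3f (chr7:108934410-108934439, plus strand): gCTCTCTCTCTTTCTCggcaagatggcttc
Eif2s3x (chrX:94212627-94212656, minus strand): TTTTCCTTTTCTCTCCgagcaagatggctg
Eif4ebp2 (chr10:61452645-61452674, minus strand): cgggacgaccgggcgagagcaggcgagttg
Such a run was found in 11 of 56 factor windows (19.6%), beside 10.3% of all 32851 windows of this length, searched on the transcribed sense only. Eef1a1 and Eef2 hold one, while Eef1b2 and Eif4ebp2 do not in these letters. A run could lie anywhere in the window, so it need not begin the transcript. The run of Eef1a1 spans the annotated start, and that of Eef2 lies wholly after it. Annotated starts can differ from those used in B cells, so a run or its absence describes only this window.

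Of the 10 factor genes with a run anywhere in the window, 9 had a ratio below 0, with a median of -0.14. Of the 30 genes without one, 14 were below 0, with a median of 0.06. The only one above 0 was Eef1a2 (0.54). In size, only Eef1a1 (-0.58), Eef2 (-0.48) and Eef1a2 passed the pooled SD of 0.36 between probe sets of a factor gene. Run length and window were chosen after the ratios were known, and the ratios below 0 numbered 5 of 10 under median scaling, 7 under quantile normalization and 8 under loess. Over all genes above the filter 535 of 1064 with a run were below 0 (50.3%) and 3419 of 7234 without one (47.3%). The values among the factors are thus a description of few genes.

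Other genes of translation control were taken from 7 lists. Among the 13 measured genes of the mTOR and MAP kinase input to eIF4E, none was 2-fold higher and 1 was 2-fold lower, beside 1.75% and 2.87% of all genes, with a median ratio of -0.26 beside 0.02 for all genes. The lower gene was Akt1s1, an inhibitory subunit of mTORC1 known as PRAS40, at 620 in transgenic against 1314 in non-transgenic cells (-1.09) with its other probe set at -0.77. The 13 genes split into 6 above 0 and 7 below. These counts used the brightest probe set of each gene. Of the genes other than Akt1s1, only Mknk2 had a probe set above the filter past 2-fold, at -1.84, while its brightest was at -0.43. Mtor itself had 1288 in transgenic and 1069 in non-transgenic cells (0.27).

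Neither branch of eIF2 regulation held a gene 2-fold apart, beside 1.75% of all genes that were 2-fold higher and 2.87% that were 2-fold lower. At these shares, lists as short as these would hold few calls or none. The 6 eIF2 kinases and phosphatase subunits had a median of -0.12 and ranged from -0.53 to 0.44. Of the targets that follow eIF2 phosphorylation, 7 of 10 lay above the filter, with a median of -0.27 and 5 below 0. Atf4, the transcription factor that drives them, had 7133 in transgenic and 9813 in non-transgenic cells (-0.46), with its other probe set at 0.45. The poly(A)-binding, termination and recycling list had 11 genes above the filter, none 2-fold apart and a median of 0.01. The hypusine and diphthamide enzymes, which modify eIF5A and eEF2, had 7 genes above the filter and a median of -0.12. Myc and the nucleolar ribosome assembly genes had a median of -0.24 over 10 genes with none 2-fold apart.

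Mitochondrial translation factors, which serve the separate ribosomes of that organelle, had a median of -0.04 over 6 genes. Tufm, the mitochondrial counterpart of eEF1A, had 366 in transgenic and 988 in non-transgenic cells by its brightest probe set (-1.43). Its other probe set was at 0.41, so its direction was not settled.

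**Figure D4:**
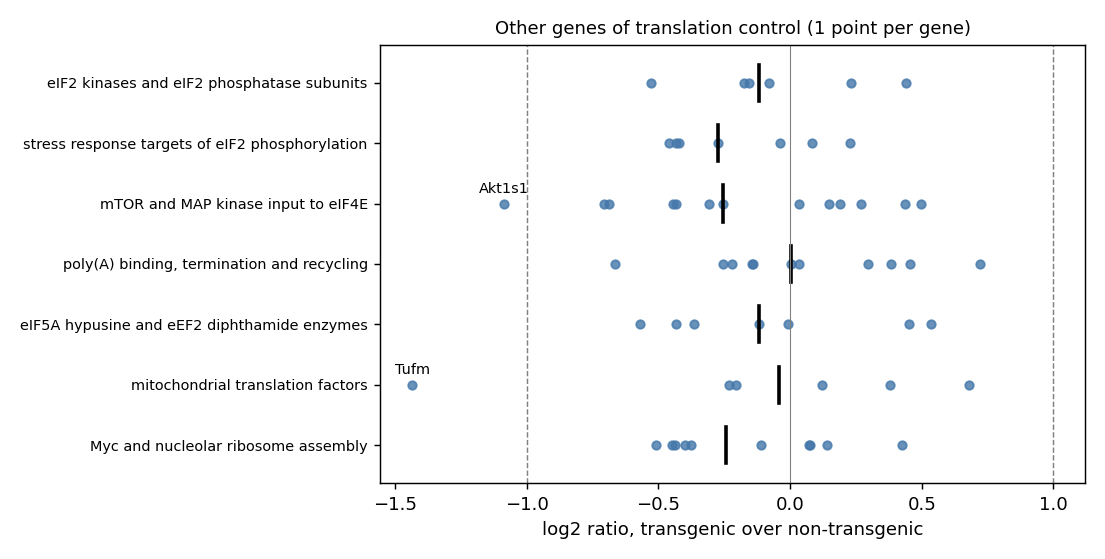
Each point is the log2 ratio of transgenic over non-transgenic (horizontal axis) of 1 gene above the filter in each of the 7 lists of translation control (rows), with the median as a black bar and 2-fold as dashed lines. Akt1s1 at -1.09 and Tufm at -1.43 are the genes past 2-fold, and the medians lie from -0.27 to 0.01.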

How the data were processed

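RNA of 1 AIRE transgenic and 1 non-transgenic B cell sample was read on Affymetrix arrays. The authors deposited a linear signal intensity for each probe set, and per the labels' protocols cDNA was fragmented and labelled with biotin. Software, background step and scaling are not given in the sources used here. As the trimmed mean (2% off each end) was already equal on both arrays, the deposited intensities were not scaled again. The 64 control probe sets were set aside. All 140 factor probe sets matched RefSeq genes by Entrez identifier and 0 were renamed. Another 8 probe sets name a factor with a second gene and were left out. The members, complexes, lists and settings were chosen with earlier results of these data known. Named were genes past 2-fold, the 2 highest and 2 lowest ratios of each complex, core members, and genes whose probe sets oppose past 2-fold. The number of arrays limits the precision. The steps were tested on simulated data. Alternatives were other scalings, filters, floors, folds and ways to represent a gene. Leaving out Eif4ebp2 and other run lengths were added after seeing the data. Python 3.11.15, numpy 2.4.6, pandas 2.3.3, statsmodels 0.14.6 and matplotlib 3.10.9 were used.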

Additional observations from a re-analysis of the deposited data

How the results depend on the processing

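No paired analysis was possible because each group holds 1 array. The factor median stayed between 0.00 and 0.19, and its distance from the median of all probe sets between -0.04 and 0.05. Median scaling moved the median of all probe sets from -0.01 to 0.15. The count of factor probe sets at least 2-fold higher (2 as reported) was 0 with a filter at the 75th percentile (0.992% of all probe sets) and 5 at 1.5-fold (8.56% of all). It was 1 without probe sets marked as shared. Those were left out of the factors only, so the share beside it stayed at 1.82% of all and is not a matched background. The count lower (4) was 2 with the filter at the 75th percentile (2.31% of all), 8 with no filter (7.17%), 9 at 1.5-fold (13.5%) and 1 without Eif4ebp2 (3.99%). The split of calls over all probe sets was 339 higher and 743 lower, but 600 and 460 under median scaling. The median of eEF2 and its kinase (0.30, 2 genes) was -0.48 with the stricter filter, which leaves 1 gene, -0.17 when a gene's probe sets were averaged and -0.24 when the middle ratio was taken (the lower of the middle pair for even numbers), since those of Eef2k disagree. Of 100 complex medians under alternatives, 97 moved by less than the SD between probe sets of a gene and 14 changed sign. Of 504 gene ratios, 490 did so and 27 changed sign. Much of this agreement was fixed in advance. Other filters and floors left the ratio of every gene that stayed above the filter unchanged. Averaging or the middle ratio cannot change a gene with 1 probe set above the filter. Other floors also left the complex medians unchanged. These counts therefore do not measure how stable the ratios are. Eif4ebp2 became -1.32 when its probe sets were averaged. The share of factor genes with a pyrimidine run below 0 (90.0%) ranged from 71.4% to 83.3% at run lengths of 6, 7 and 10.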

Other observations

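Probe sets that name a factor together with a second gene were left out of the comparison. Eef1g, a subunit of eEF1, shares its bright probe set with Gm29753, at 16680 in transgenic and 20633 in non-transgenic cells (-0.31). The 3 probe sets shared by the eIF3 genes Eif3j1 and Eif3j2 were at -0.30, 0.07 and 0.29. That of Eif4a3 and Gm5576 had 3970 in transgenic and 4201 in non-transgenic cells (-0.08), unlike the single-symbol probe set of Eif4a3, which lay under the floor on both arrays. Eif4ebp3, the remaining 4E-binding protein, shares a probe set with Ankhd1 at 1819 in transgenic against 1708 in non-transgenic cells (0.09). The Y-linked Eif2s3y was detected on both arrays, at 2545 in transgenic and 1938 in non-transgenic cells (0.39), and the sex of the mice was not given in the labels.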
